A study of Mus musculus with 16 samples.

Results

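The Slc25 genes encode the mitochondrial solute carriers, the proteins that move metabolites across the inner mitochondrial membrane. They were taken here as every gene whose symbol in the array's probe table starts with Slc25a, counting probe sets with 1 symbol, and each gene was read from its brightest probe set over the 16 arrays. This gave 40 genes of 17097, with 73 probe sets between them, and 20 of the 40 genes had more than 1. RNA of the quadriceps, a thigh muscle, was hybridised to Affymetrix arrays, 1 array per mouse, in 4 groups of 4 mice. The groups were control and Mfn2 KO mice aged 6 months, called young, and control and Mfn2 KO mice aged 22 months, called old. All were fed standard chow. Mfn2 encodes mitofusin 2, an outer membrane protein that fuses mitochondria. The labels name no promoter, Cre line or cell type for the deletion, and they give each mouse a family, where families A and B contain no young mouse, families C and D no old one, and only the family called Other has both. Values are log2 signals, so that a difference of 1 is a doubling, and the signals of different probe sets cannot be set against each other.

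Carriers of this family share a fold of repeated modules and most of them exchange one solute for another. Together they feed the respiratory chain and ATP synthase with ADP and phosphate, pass malate, aspartate, glutamate and citrate between cytosol and matrix, bring in fatty acids as carnitine esters, and supply the matrix with nucleotides, coenzymes, iron and glutathione. A few members sit in the outer membrane and take part in mitochondrial shape. In skeletal muscle the ADP/ATP carrier Slc25a4 and the phosphate carrier Slc25a3 are known as abundant proteins of the inner membrane.

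Promoter windows of 300 bases, from 250 before to 50 after the start of the gene, were read from RefSeq (assembly GRCm38.p6) for the 31 of the 40 genes that had one, in 40 windows. The 3 windows below were chosen as examples after the values were seen: Slc25a34 had the steepest slope on slow fibre markers, Slc25a25 the largest genotype difference in young mice and Slc25a1 the smallest unadjusted p for a slope on adipocyte markers. The capitals mark the motif that was searched on both strands. They are the estrogen-related receptor element AAGGTCA, whose reverse reads TGACCTT, the cAMP response element TGACGTCA, and the E-box CACGTG. The last 2 motifs share the inner letters ACGT.
Slc25a34, chr4:141623785-141624084, minus strand: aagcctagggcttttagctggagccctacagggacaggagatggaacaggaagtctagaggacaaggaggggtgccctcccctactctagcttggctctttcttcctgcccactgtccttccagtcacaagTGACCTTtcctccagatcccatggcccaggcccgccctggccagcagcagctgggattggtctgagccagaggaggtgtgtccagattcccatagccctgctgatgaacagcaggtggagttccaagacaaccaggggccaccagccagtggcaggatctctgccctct
Slc25a25, chr2:32424017-32424316, minus strand: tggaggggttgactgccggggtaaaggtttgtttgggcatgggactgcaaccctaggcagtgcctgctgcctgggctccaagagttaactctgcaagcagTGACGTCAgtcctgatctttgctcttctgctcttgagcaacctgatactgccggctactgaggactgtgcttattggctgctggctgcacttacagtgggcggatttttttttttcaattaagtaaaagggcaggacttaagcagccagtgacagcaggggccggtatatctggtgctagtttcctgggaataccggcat
Slc25a1, chr16:17928170-17928469, minus strand: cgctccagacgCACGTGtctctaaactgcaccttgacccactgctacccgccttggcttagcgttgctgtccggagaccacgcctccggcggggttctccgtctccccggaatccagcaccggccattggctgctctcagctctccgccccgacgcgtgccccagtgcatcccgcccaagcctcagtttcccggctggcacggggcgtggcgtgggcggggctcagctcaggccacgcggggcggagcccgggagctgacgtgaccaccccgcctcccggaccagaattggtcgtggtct

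Counted from the start in the printed window, with bases before it negative, the receptor element stood at -119 in Slc25a34, the cAMP response element at -150 in Slc25a25 and the E-box at -239 in Slc25a1. Slc25a25 had another window at another start, chr2:32451421-32451720, which held an ETS core and no cAMP response element. Slc25a34 was the only carrier with the receptor element, in 1 of 40 windows, against 4.72% of all 32851 windows. The cAMP response element was in 2 windows, of Slc25a25 and Slc25a36, against 1.79% of all windows. The E-box was in 7 windows of 6 carriers, against 7.15% of all windows, and besides Slc25a1 these were Slc25a13, Slc25a14, Slc25a15, Slc25a33 and Slc25a36. The ETS core CCGGAAG was in 6, among them Slc25a3, Slc25a4 and Slc25a20, against 8.86%, and the NRF1 core GCGCATGC was in 0, against 2.71%. A match describes the letters and is no evidence of binding.

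The targeted gene was read first. Mfn2 stood at 8.66, 9.05, 8.03 and 9.45 in the 4 young control mice and at 8.41, 8.49, 8.38 and 8.54 in young KO mice (log2 signal, replicates 1 to 4). It stood at 8.52, 8.67, 8.34 and 9.18 in old control and at 8.31, 8.01, 6.32 and 8.32 in old KO mice. Between old control and old KO mice the values did not overlap (exact two-sided permutation p = 0.0286, the lowest that 4 against 4 mice allow), while the young groups overlapped. Paired by replicate number, the exact two-sided sign-change p in old mice was 0.125, the lowest that 4 pairs allow. Old KO mice also lay wholly below young KO mice of the same genotype (exact two-sided permutation p = 0.0286). The KO difference was -0.34 in young and -0.94 in old mice, and neither passed adjustment over all genes (limma, adjusted p under 0.05). The 10 skeletal muscle markers averaged between 11.84 and 12.14 in all arrays, while the 7 slow fibre markers averaged anywhere from 5.70 to 10.74. Arrays with the same replicate number in the labels deviated together from their group means, with correlations from 0.29 to 0.78 over 24 pairs. Each comparison was therefore fitted without and with the replicate number as a block, and the labels do not say what the number stands for. Whether the mice of a group came from separate litters is not stated either. By the labels, every old KO mouse outside the family called Other belonged to family A, while old control mice came from A, B and Other. Family therefore went partly with genotype in old mice. Mice also shared family B within old control and family D within young KO muscle. Apart from fits that included family, the tests treated the mice of a group as independent of family.

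No carrier differed between groups after adjustment over all 17097 genes (limma, adjusted p under 0.05), by genotype at either age, by age in either genotype, in the interaction, or averaged over ages or genotypes. Without the block every carrier's adjusted p rounded to 1, and with it the lowest was 0.202, for Slc25a15 by age in KO mice. Over all genes the calls without the block were 0% by genotype in young and 0% in old muscle, and 0% by age in control and 0.0175% in KO muscle. They were 0% for the interaction, 0% for genotype over both ages and 0.0585% for age over both genotypes. With the block they were 0%, 0%, 0.0468%, 0.0234%, 0%, 0% and 0.579% in the same order. The absence of calls among the carriers is therefore close to the background of the whole array, and it does not show that levels were equal.

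The 40 carriers were split in sign in each comparison. In young mice 22 of 40 were higher in KO and 18 lower, with a median difference of 0.01 against -0.01 over all genes. In old mice 16 were higher in KO and 24 lower, with a median of -0.04. With age 21 were higher and 19 lower in control muscle (median 0.01), and 16 higher and 24 lower in KO muscle (median -0.04). In the fit without the block, leaving out old KO replicate 3 turned the median to 0.04 by genotype in old mice. It turned the median to 0.03 by age in KO mice. Leaving out young control replicate 3 turned it to -0.05 by age in control mice. Each of the medians over all 16 arrays lay within 0.05 of that over all genes. Each group enters a genotype and an age comparison, so the 4 comparisons are not independent of each other.

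At an unadjusted p under 0.05 the block changed the counts by more than 1.5 times. Without it 3 carriers passed by genotype in young muscle, against 1.7% of all genes, 1 in old muscle (1.14%), 0 by age in control muscle (2.12%) and 0 in KO muscle (2.59%). With it the counts were 7 (9.43%), 2 (6.62%), 7 (9.64%) and 6 (10.2%). For the interaction 2 carriers passed without the block (1.13%) and 8 with it (7.24%), 7 of these 8 with a negative sign. Of all 40 carriers 25 had a negative interaction, and the signs of all genes that passed were not counted. For genotype over both ages the counts were 0 (1.55%) and 3 (8.47%), and for age over both genotypes 0 (3.52%) and 5 (11.7%). These counts rest on unadjusted p and name candidates only.

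In none of the 40 carriers did the 4 values of one group lie wholly above or below those of the other, in any of the 4 comparisons of 2 groups. Over all genes this was so for 1.36% by genotype in young mice, 0.907% in old mice, 1.52% by age in control mice and 1.8% in KO mice. Within the replicate numbers, 5 carriers differed in the same direction in 4 of 4 numbers by genotype in young mice, against 18.6% of all genes, and 9 in old mice, against 13.5%. By age this was so for 4 carriers in control mice, against 17.2%, and 8 in KO mice, against 19.7%. Of the 9 in old mice 7 were lower in KO, among them Slc25a15, Slc25a37, Slc25a38 and Slc25a46. The shares over all genes hold both directions and were not split, so this lean is not read as a trait of the carriers. Some of the differences were near 0, such as -0.008 in number 1 for Slc25a15 and -0.021 in number 2 for Slc25a46.

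**Figure D1:**
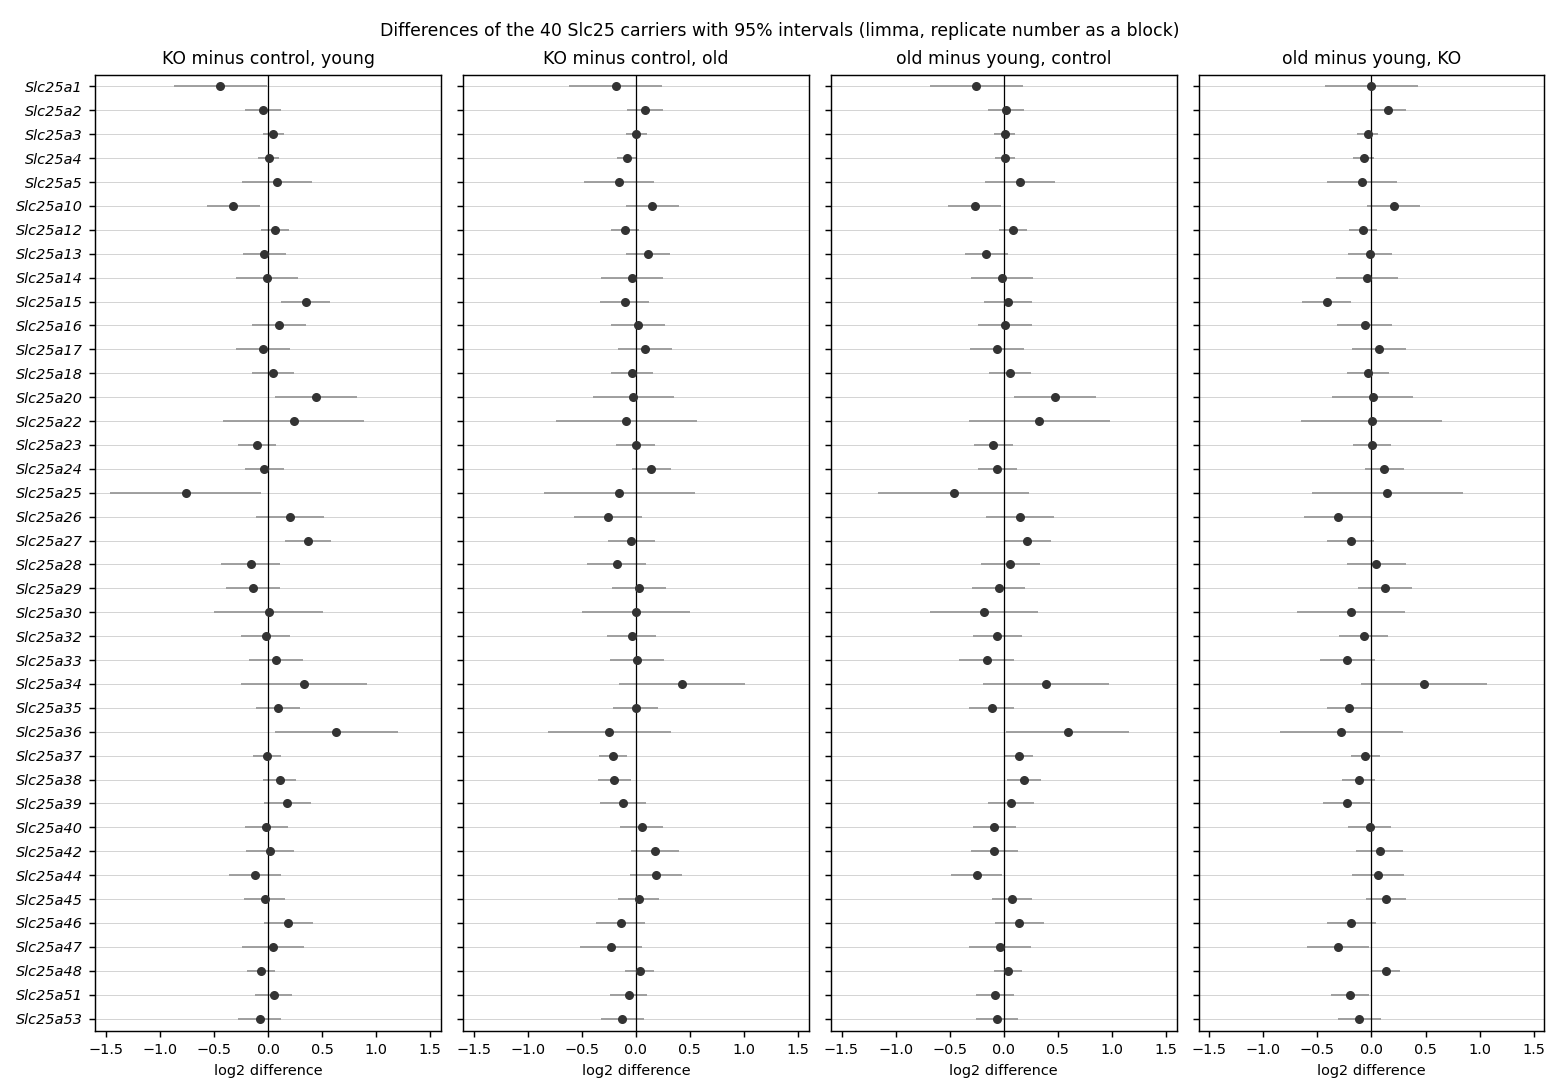
Differences of the 40 Slc25 carriers in the 4 comparisons of 2 groups, in log2 units, as limma estimates (points) with 95% intervals (bars) from the fit with the replicate number as a block, 4 mice per group. Most points lie close to 0, and the widest intervals belong to Slc25a22, Slc25a25, Slc25a34 and Slc25a36.

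The carriers that serve ATP synthesis are Slc25a4 and Slc25a5, which exchange ADP for ATP, Slc25a3, which brings in phosphate, and the calcium-regulated ATP-Mg carriers Slc25a23, Slc25a24 and Slc25a25. Slc25a3 stood at 11.61, 11.71, 11.54 and 11.65 in young control and 11.69, 11.69, 11.71 and 11.62 in young KO mice (log2, replicates 1 to 4). In old mice it stood at 11.56, 11.65, 11.68 and 11.65 in control and 11.75, 11.64, 11.61 and 11.56 in KO. All 16 values lay within 0.21 log2 units, and the groups overlapped throughout. The KO difference was 0.05 in young mice (95% interval -0.04 to 0.14) and 0.00 in old mice (-0.09 to 0.10), so the intervals held no change beyond 0.14 log2 units in either direction.

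Slc25a4, the ADP/ATP carrier of heart and muscle, stood at 12.11, 12.13, 12.24 and 12.29 in young control and 12.15, 12.09, 12.33 and 12.21 in young KO mice. In old mice it was 12.08, 12.20, 12.32 and 12.21 in control and 12.17, 11.96, 12.16 and 12.19 in KO. The groups overlapped, and old KO replicate 2 was the lowest of the 16. KO differed from control by 0.00 in young mice (95% interval -0.13 to 0.14) and -0.08 in old mice (-0.22 to 0.05), and the age difference was 0.01 in control and -0.07 in KO mice.

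These flat readings come from the bright end of the arrays, where the highest value of any gene was 12.81. Both genes had a dimmer probe set that varied more. The dimmer one of Slc25a4 had a within-group SD of 0.35, against 0.10 for the bright one, and averaged 6.11 in young control, 6.36 in young KO, 6.28 in old control and 6.04 in old KO mice. That of Slc25a3 had a within-group SD of 0.69 against 0.06. From replicate numbers 1 and 2 to numbers 3 and 4 the dimmer sets shifted by -0.50 for Slc25a4 and -1.0 for Slc25a3, and the bright sets by 0.13 and -0.04. Whether the bright sets have room to show a rise was not tested.

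Slc25a25 gave the largest difference of any carrier by genotype in young mice. It stood at 8.93, 8.37, 8.27 and 9.19 in young control and at 7.59, 8.56, 8.31 and 7.26 in young KO mice, and at 8.91, 8.10, 7.82 and 8.09 in old control and 7.93, 8.07, 7.48 and 8.83 in old KO. Young KO replicate 4 was the lowest of the 16 arrays and replicate 1 lay below every young control, while young KO replicates 2 and 3 lay within the young control range. The mean was lower in KO by 0.76 (SE 0.33, or 0.33 with the block; adjusted p = 0.494 with the block), or 1.7-fold, and 2 of 4 numbers went each way. Without single arrays the difference ranged from -0.97 to -0.54, the smallest without young KO replicate 4. In old mice the difference was -0.15, and averaged over both ages it was -0.46 (SE 0.24, or 0.23 with the block; adjusted p = 0.622 with the block). A second probe set of Slc25a25 gave -0.80 in young and -0.06 in old mice. By their brightest probe sets Slc25a5, Slc25a23 and Slc25a24 differed by at most 0.15 in any of the 4 comparisons of 2 groups. Over the 6 measured genes of this group 0 passed adjustment in any comparison, and 3 of 6 were higher in KO in young and 2 in old mice.

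Of the di- and tricarboxylate carriers 2 were measured, Slc25a1, which exports citrate for fatty acid synthesis, and Slc25a10, which exchanges malate or succinate for phosphate. Both averaged lower in young KO than in young control muscle, and both had a positive slope on markers of fat cells that did not pass adjustment. Slc25a1 stood at 5.46, 6.62, 5.81 and 6.15 in young control and 5.62, 5.57, 5.48 and 5.62 in young KO mice, and at 6.26, 5.61, 5.40 and 5.76 in old control and 5.70, 5.91, 5.29 and 5.38 in old KO. Young control replicate 2 and old control replicate 1 were high, and the 4 young KO values lay together. KO differed by -0.44 in young mice (SE 0.23, or 0.20 with the block; adjusted p = 0.515 with the block) and -0.19 in old mice. With young control replicate 2 left out the young difference was -0.24, and with old control replicate 1 left out the old one was -0.02. Over both ages it was -0.31 (SE 0.16, or 0.14 with the block; adjusted p = 0.567 with the block).

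Slc25a10 stood at 5.87, 6.29, 6.31 and 6.20 in young control and 5.86, 5.59, 5.96 and 5.97 in young KO mice. In old mice it was 6.07, 5.89, 5.77 and 5.88 in control and 5.94, 6.01, 6.12 and 6.14 in KO. Control exceeded KO in 4 of 4 numbers in young mice and lay below it in 3 of 4 in old mice, with overlapping values at both ages. The KO difference was -0.32 in young (SE 0.13, or 0.11 with the block; adjusted p = 0.435 with the block) and 0.15 in old mice, and their difference, the interaction, was 0.47 (SE 0.18, or 0.16 with the block; adjusted p = 0.641 with the block). By age it was lower by 0.27 in control mice (adjusted p = 0.484 with the block) and higher by 0.21 in KO mice. Its second probe set gave -0.28 in young and 0.18 in old mice by genotype, the same pattern.

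The mean of the 6 measured adipocyte markers, of 9 listed, was 6.42, 7.17, 6.79 and 7.17 in young control and 5.93, 5.95, 6.00 and 6.47 in young KO muscle. It was 7.16, 6.40, 6.38 and 6.21 in old control and 6.91, 6.88, 6.17 and 7.17 in old KO muscle. Among them Adipoq, the hormone adiponectin, averaged 8.23 in young control and 5.30 in young KO, while Pck1 lay at or below 3.97 and Lep at or below 4.58 in every array. In the same groups Retn averaged 7.55 and 6.31, Lep 3.81 and 3.36, Fabp4 11.15 and 11.07, Plin4 7.26 and 7.15, and Pck1 3.32 and 3.33. The marker mean was thus lower in young KO muscle mainly through Adipoq and Retn. Beside group and number, the slope on this mean was 0.61 per log2 unit (SE 0.19, adjusted p = 0.883) for Slc25a1 and 0.28 per log2 unit (SE 0.12, adjusted p = 1) for Slc25a10. They were the only 2 of 40 carriers with an unadjusted p under 0.05, against 4.39% of all genes, and 0 of 40 passed adjustment, against 0.0644%. With the marker mean in the fit the young KO difference was 0.05 for Slc25a1 (SE 0.22) and -0.10 for Slc25a10 (SE 0.14). In bulk muscle fewer cells of a type and less RNA per cell cannot be told apart, and the part of fat cells in these differences was not tested.

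The aspartate and glutamate carriers include Slc25a12 and Slc25a13, which move aspartate out for glutamate in the malate-aspartate shuttle, and the glutamate carriers Slc25a18 and Slc25a22. Slc25a12, the form of muscle and brain, stood at 10.52, 10.50, 10.43 and 10.70 in young control and 10.58, 10.63, 10.61 and 10.59 in young KO mice, and at 10.54, 10.59, 10.71 and 10.64 in old control and 10.49, 10.65, 10.38 and 10.56 in old KO. The groups overlapped. The difference was 0.07 in young (95% interval -0.07 to 0.20) and -0.10 in old mice (-0.23 to 0.03).

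Its dimmer probe set differed in the same directions and by more. That set stood at 7.85, 8.28, 7.55 and 7.83 in young control, 8.34, 8.35, 7.99 and 8.30 in young KO, 8.35, 8.56, 7.81 and 7.56 in old control and 7.56, 8.17, 7.07 and 7.83 in old KO mice. It differed by 0.37 by genotype in young and -0.41 in old mice, and by -0.59 by age in KO mice, with old KO replicate 3 the lowest at 7.07. This set was read after its values were seen and was not tested. Slc25a22, singled out after its values were seen, was low in 3 of the 4 arrays of number 3, at 5.63 in young control, 5.82 in young KO and 5.83 in old KO, while old control replicate 3 stood at 7.19 and the other 12 arrays lay from 6.64 to 7.79. Slc25a13 and Slc25a18 differed by at most 0.16. Of the 4 genes 3 were higher in KO in young mice and 1 in old mice, and 0 passed.

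Slc25a20 carries acylcarnitines inward and free carnitine outward and so brings long-chain fatty acids to oxidation. It stood at 8.54, 8.70, 7.40 and 8.68 in young control and 9.00, 8.86, 8.63 and 8.60 in young KO mice, and at 8.69, 9.01, 8.79 and 8.72 in old control and 8.99, 9.11, 8.32 and 8.71 in old KO. Young control replicate 3 stood far below the other 15 arrays. The young KO mean was higher by 0.44 (SE 0.24, or 0.18 with the block; adjusted p = 0.478 with the block) and old control exceeded young control by 0.48 (SE 0.24, or 0.18 with the block; adjusted p = 0.423 with the block). Without young control replicate 3 these differences were 0.13 and 0.17, and with the block 0.20 and 0.23. In old mice the KO difference was -0.02. The second probe set gave 0.53 by genotype in young and 0.57 by age in control muscle. It shared the low array, with young control replicate 3 at 7.11 against 8.04 to 8.25 in the other young controls.

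Slc25a15 exchanges ornithine for citrulline. It stood at 6.16, 6.29, 5.29 and 5.85 in young control and 6.43, 6.53, 6.03 and 5.99 in young KO mice, and at 5.95, 6.55, 5.47 and 5.77 in old control and 5.95, 6.22, 5.46 and 5.71 in old KO. Number 2 was the highest in every group and number 3 the lowest in 3 of 4, and within numbers KO was higher in 4 of 4 young pairs and lower in 4 of 4 old pairs. The KO difference was 0.35 in young (SE 0.25, or 0.11 with the block; adjusted p = 0.392 with the block) and -0.10 in old mice, with an interaction of -0.45 (SE 0.36, or 0.15 with the block; adjusted p = 0.641 with the block). Old KO mice were lower than young KO mice by 0.41, 1.33-fold, in 4 of 4 numbers (SE 0.25, or 0.11 with the block; adjusted p = 0.202 with the block). Without single arrays that difference ranged from -0.54 to -0.29. The young KO difference was 0.15 with young control replicate 3 left out. Leaving out old control replicate 2 turned the old one to 0.10 and gave an interaction of -0.25, all in the fit without the block. That fit kept the old KO mouse of number 2, the highest number in every group. Within numbers 1 to 4 the old KO differences were -0.008, -0.33, -0.012 and -0.061. The dimmer probe set gave 0.18 and 0.04 by genotype in young and old mice, and -0.29 by age in KO mice.

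Slc25a48, a carrier tied to choline import, was dim. It stood at 3.40, 3.50, 3.75 and 3.55 in young control, 3.51, 3.46, 3.50 and 3.47 in young KO, 3.50, 3.56, 3.70 and 3.60 in old control and 3.62, 3.60, 3.76 and 3.50 in old KO mice, and was higher with age by 0.14 in KO mice (SE 0.08, or 0.06 with the block; adjusted p = 0.455 with the block) and by 0.09 over both genotypes (SE 0.06, or 0.04 with the block; adjusted p = 0.441 with the block). Slc25a38, which brings in glycine for haem synthesis and was singled out after its values were seen, differed by -0.20 by genotype in old mice, lower in 4 of 4 numbers (SE 0.07 and adjusted p = 0.708 with the block). Over the 9 carriers of carnitine and amino acids 4 were higher in KO in young mice, 5 in old mice, and 6 were higher with age in each genotype. The others of this group are Slc25a2 and Slc25a29 for basic amino acids, Slc25a44 for branched-chain amino acids, and Slc25a45 and Slc25a47, and 0 of the 9 passed adjustment.

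The nucleotide, coenzyme and cofactor carriers had 8 measured members. Slc25a26, which imports S-adenosylmethionine, stood at 7.64, 7.56, 7.05 and 7.43 in young control and 7.53, 7.77, 7.85 and 7.34 in young KO mice, and at 7.54, 7.82, 7.36 and 7.57 in old control and 7.27, 7.83, 6.84 and 7.32 in old KO. It was lower in old KO than in old control by 0.26 (SE 0.20, or 0.15 with the block; adjusted p = 0.821 with the block), with overlap, and old KO replicate 3 was the lowest at 6.84. Without that array the difference was -0.10, and without old KO replicate 2 it was -0.43. Its other 2 probe sets gave -0.06 and -0.30 in that comparison. Slc25a36, a pyrimidine nucleotide carrier singled out after its values were seen, stood at 6.98, 7.24, 6.64 and 5.77 in young control and 7.46, 7.76, 7.42 and 6.50 in young KO mice, higher in KO in 4 of 4 numbers. Its difference of 0.63 (SE 0.38, or 0.27 with the block; adjusted p = 0.492 with the block) includes young control replicate 4, the lowest of the 16 arrays. The dimmer probe set of Slc25a36 gave 0.10. In old mice Slc25a36 stood at 6.87, 7.68, 7.14 and 7.31 in control and 7.79, 7.50, 6.12 and 6.61 in KO, a difference of -0.24. The rest were Slc25a16 and Slc25a42 for coenzyme A, Slc25a17 of the peroxisome, Slc25a32 for folate or flavin, Slc25a33 for pyrimidine nucleotides and Slc25a51 for NAD. Of the 8 carriers, by genotype 6 were higher in KO in young mice (median 0.06) and 4 in old mice (-0.01), and by age 3 were higher in control mice (-0.06) and 2 in KO mice (-0.14). None of the 8 passed adjustment.

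Slc25a37 and Slc25a28, the mitoferrins, import iron, and Slc25a39 and Slc25a40 carry glutathione. Slc25a37 stood at 10.41, 10.23, 10.52 and 10.71 in young control and 10.35, 10.40, 10.55 and 10.54 in young KO mice, and at 10.64, 10.48, 10.64 and 10.69 in old control and 10.25, 10.41, 10.45 and 10.49 in old KO. In old mice 3 of the 4 control values lay above every KO value, and control exceeded KO in 4 of 4 numbers. The difference in old mice was -0.21, or 1.16-fold (SE 0.09, or 0.06 with the block; adjusted p = 0.637 with the block; exact two-sided permutation p = 0.0571), and without single arrays it ranged from -0.26 to -0.16. Paired by replicate number, its exact two-sided sign-change p was 0.125, the lowest that 4 pairs allow. The dimmer probe sets gave -0.25 and -0.27, in the same direction. In young mice the KO difference was -0.01, and with age control muscle was higher by 0.14 (SE 0.09, or 0.06 with the block; adjusted p = 0.484 with the block), or by 0.06 without young control replicate 2 and 0.22 without young control replicate 4. The mean of the 4 measured erythroid markers, of 8 listed, lay at 6.93 to 7.33 in old control and 6.78 to 7.43 in old KO arrays. Beside group and number, the slope of Slc25a37 on this mean was -0.18 per log2 unit (SE 0.15, limma adjusted p = 0.848). Of the 4 genes, by genotype 1 was higher in KO in young mice (median -0.01) and 1 in old mice (-0.15), and by age 3 were higher in control mice (0.06) and 1 in KO mice (-0.04), and 0 passed.

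Slc25a27, Slc25a14 and Slc25a30 are relatives of the uncoupling proteins. Slc25a27, also called Ucp4, stood at 4.24, 3.86, 4.23 and 4.11 in young control and 4.20, 4.34, 4.74 and 4.65 in young KO mice, and at 4.19, 4.41, 4.45 and 4.27 in old control and 4.08, 4.14, 4.45 and 4.48 in old KO. Young KO replicates 3 and 4 were the highest of all 16, and KO exceeded control in 3 of 4 young pairs. The KO difference was 0.37 in young mice, or 1.29-fold (SE 0.14, or 0.10 with the block; adjusted p = 0.362 with the block; exact two-sided permutation p = 0.0857), and -0.04 in old mice. Paired by replicate number, the exact two-sided sign-change p of the young difference was 0.25. The interaction was -0.41 (SE 0.19, or 0.14 with the block; adjusted p = 0.641 with the block). Without single arrays the young difference ranged from 0.29 to 0.46. Slc25a27 had a single probe set and a low signal. By their brightest probe sets Slc25a14 and Slc25a30 differed by at most 0.19 in the 4 comparisons of 2 groups. Of 5 probe sets of Slc25a30 the dimmest gave -0.32 by genotype in old mice and -0.50 by age in KO mice. By genotype in young and old mice its brightest set gave 0.004 and 0.0007, and the second brightest -0.17 and -0.06. Of the 3 relatives, by genotype 2 were higher in KO in young mice (median 0.00) and 1 in old mice (-0.04), and by age 1 was higher in control mice (-0.02) and 0 in KO mice (-0.19), and 0 passed.

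Slc25a46 is an outer membrane protein that interacts with the fusion and cristae machinery. It stood at 7.77, 8.00, 7.28 and 7.74 in young control and 8.03, 8.00, 7.81 and 7.69 in young KO mice, and at 7.96, 8.13, 7.44 and 7.82 in old control and 7.83, 8.11, 7.13 and 7.72 in old KO. Its 3 lowest values were the number 3 arrays of old KO, young control and old control mice. KO differed from control by 0.19 in young (SE 0.21, or 0.11 with the block; adjusted p = 0.617 with the block) and -0.14 in old mice, lower in KO in 4 of 4 old pairs. Mfn1, the other mitofusin, was singled out after its values were seen. It differed by 0.33 by genotype in young mice (SE 0.13, or 0.10 with the block, and adjusted p = 0.392 with the block).

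Slc25a34, an orphan carrier, had the widest span of all, 2.61 log2 units. It stood at 6.54, 7.19, 5.34 and 7.31 in young control and 7.36, 7.32, 6.10 and 6.94 in young KO mice, and at 6.92, 7.66, 6.92 and 6.44 in old control and 7.95, 7.64, 6.64 and 7.42 in old KO. The lowest value was that of young control replicate 3 and the highest that of old KO replicate 1. With age it was higher by 0.39 in control and 0.48 in KO mice, and over both genotypes by 0.44 (SE 0.30, or 0.19 with the block; adjusted p = 0.389 with the block). In the fit without the block, leaving out young control replicate 3 gave an age difference of 0.23 over both genotypes and -0.03 in control mice. With the family of the labels in the fit the first of these turned to -0.09. By genotype Slc25a34 differed by 0.33 in young mice, or -0.09 without young control replicate 3, and by 0.43 in old mice, or 0.24 without old control replicate 4. Both leave-outs are from the fit without the block. Within numbers 1 to 4 the young KO differences were 0.81, 0.13, 0.77 and -0.38. Slc25a35 and Slc25a53, also orphans, differed by at most 0.21. Of the 4 outer membrane and orphan members, by genotype 3 were higher in KO in young mice (median 0.14) and 1 in old mice (-0.06), and by age 2 were higher in control mice (0.04) and 1 in KO mice (-0.15), and 0 passed.

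**Figure D2:**
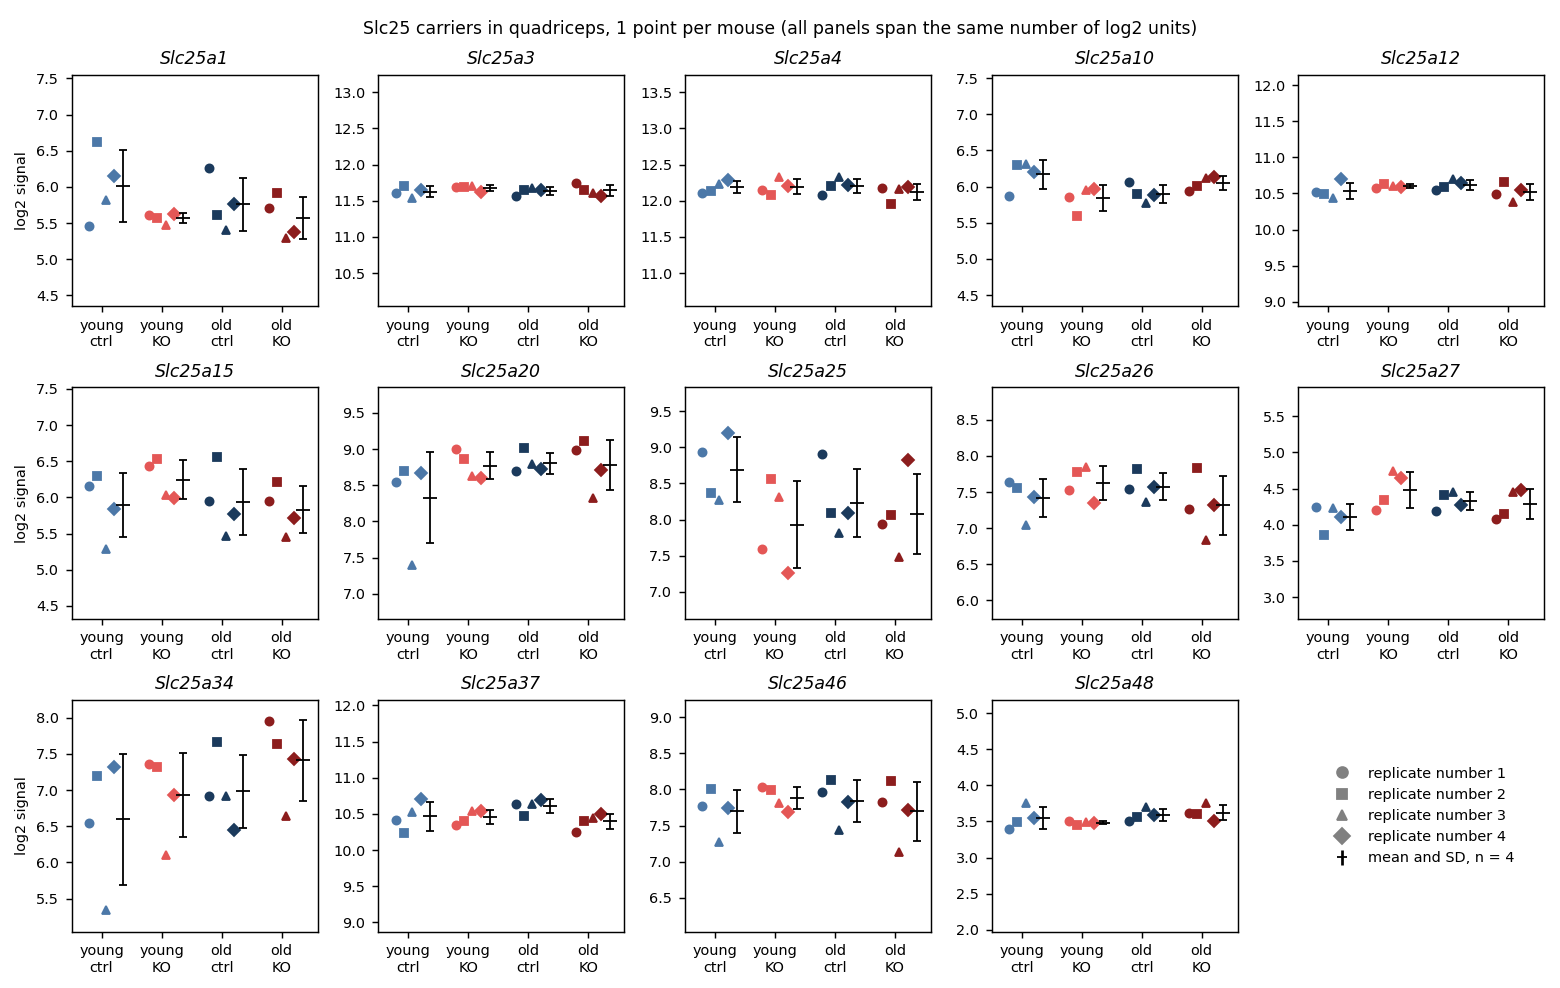
Log2 signal of 14 Slc25 carriers in each of 16 mice, by group, with the marker shape giving the replicate number and the black bar the mean and SD of 4 mice. Slc25a3, Slc25a4 and Slc25a12 are nearly flat, Slc25a20 and Slc25a34 have their lowest point in young control replicate 3, and within every panel the groups overlap.

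Carrier levels also differed between replicate numbers. Beside group, an F test of the number passed adjustment for 29 of 40 carriers, against 66.6% of all genes, a share near the background. Of the 29, 21 were lower in numbers 3 and 4 than in 1 and 2 and 8 were higher, or 72.4% lower against 59.1% of all genes called. The median shift was -0.28 over the carriers and -0.08 over all genes. For 6 carriers the 8 arrays of numbers 3 and 4 did not overlap the 8 of 1 and 2, against 26.1% of all genes. Slc25a16, Slc25a32, Slc25a38 and Slc25a40 were lower there and Slc25a2 and Slc25a53 higher.

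Slc25a2 averaged 3.58, 3.39, 4.27 and 4.02 in numbers 1 to 4 (adjusted p = 1.69e-06). Slc25a47 averaged 5.52, 5.84, 4.80 and 5.04 (adjusted p = 4.88e-05). Slc25a22, whose number means spanned the widest range of the 40, averaged 6.12 in number 3 against 7.36, 7.52 and 7.35 in the others (adjusted p = 0.00303). Slc25a3, Slc25a10, Slc25a12, Slc25a18 and Slc25a25 were among the 11 carriers that did not pass this test.

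**Figure D3:**
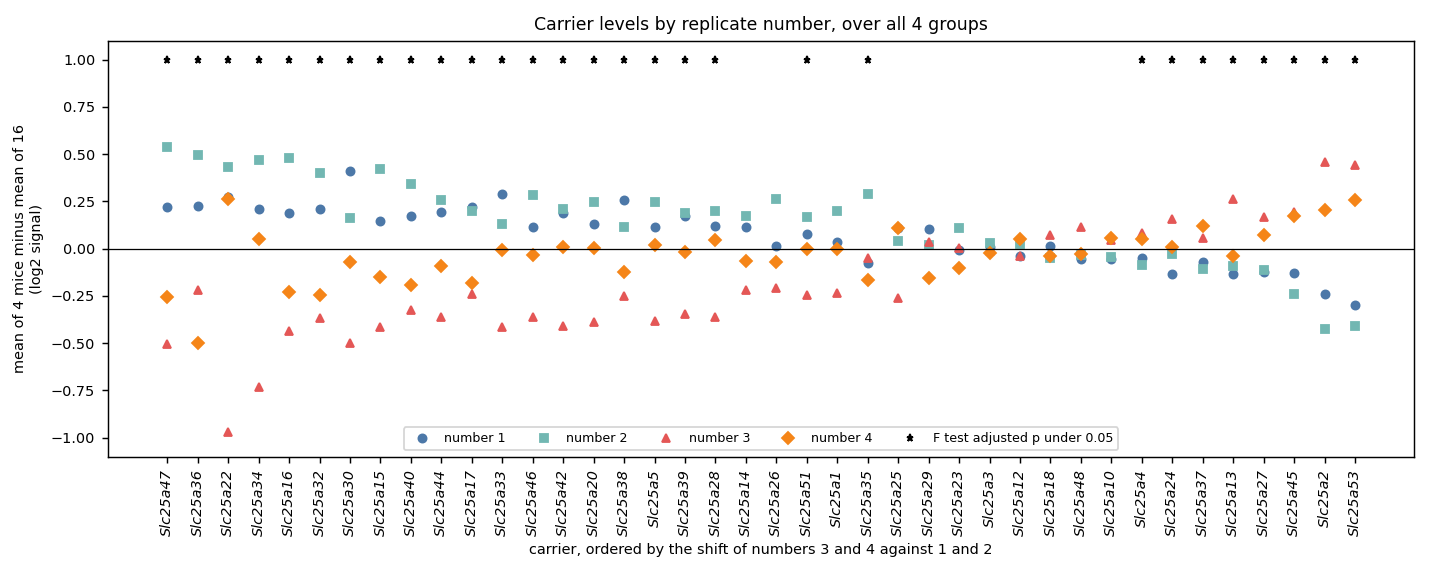
Mean log2 signal of each carrier in the 4 mice of each replicate number, minus its mean over 16 mice, ordered by the shift of numbers 3 and 4 against 1 and 2, with stars for an adjusted p under 0.05 in the F test. Stars stand over 29 of 40 carriers, and on the left numbers 1 and 2 lie above 0.

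Slow fibre markers varied widely between the mice of every group. The mean of the 7 slow fibre markers was 6.34, 9.14, 5.70 and 9.78 in young control, 10.73, 9.96, 8.02 and 8.01 in young KO, 6.00, 10.34, 9.82 and 6.95 in old control and 10.74, 8.92, 10.16 and 6.79 in old KO muscle. Beside group and number, 10 of 40 carriers had a slope with an unadjusted p under 0.05, against 9.69% of all genes, and 8 of the 10 slopes were positive. Of all 40 slopes 20 were positive, and the signs of all genes under that p were not counted. After adjustment 0 of 40 passed, against 0.205% of all genes. Of these 10 the steepest were Slc25a34 at 0.20 per log2 unit (SE 0.04, adjusted p = 0.0671), Slc25a22 at 0.17 per log2 unit (SE 0.06, adjusted p = 0.327) and Slc25a20 at 0.09 per log2 unit (SE 0.04, adjusted p = 0.42). Slc25a28, named after its values were seen, followed at 0.09 per log2 unit (SE 0.02, adjusted p = 0.166).

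With the slow fibre mean in the fit, the young KO difference of Slc25a34 was 0.05 (SE 0.17) in place of 0.33, and that of Slc25a20 was 0.31 (SE 0.16) in place of 0.44. The old KO difference of Slc25a34 was 0.25 in place of 0.43. The differences of Slc25a27 and Slc25a15 in young mice were 0.41 and 0.31, close to 0.37 and 0.35. The part of fibre type in these differences was not tested further.

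**Figure D4:**
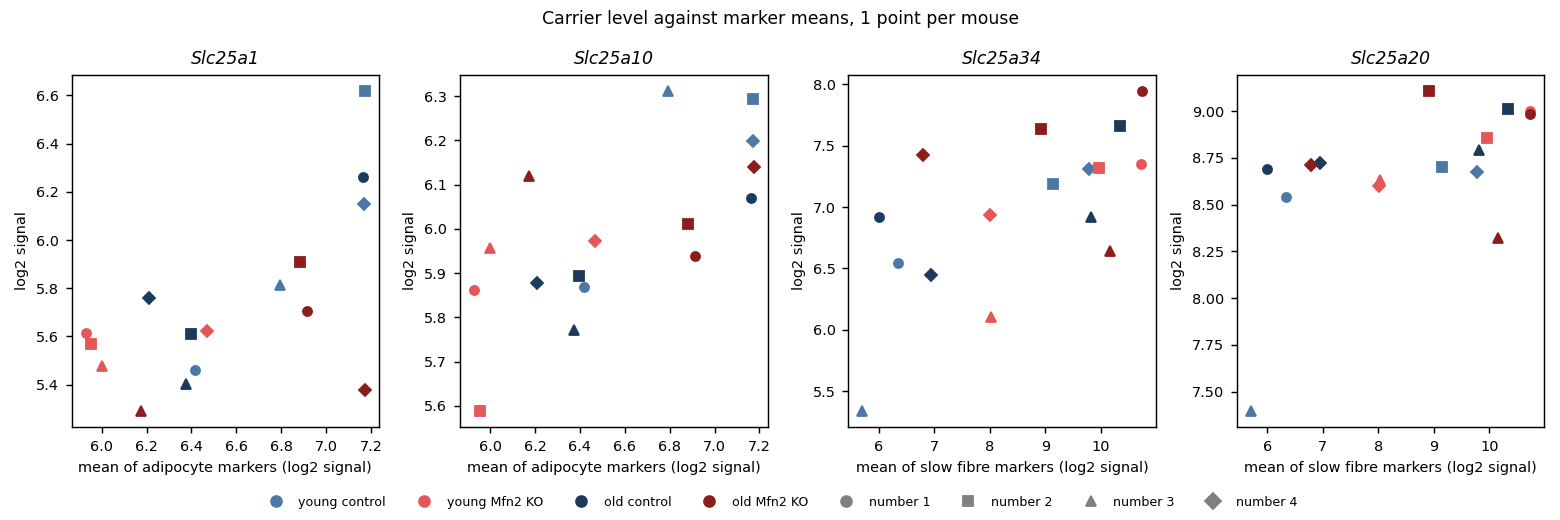
Log2 signal of Slc25a1 and Slc25a10 against the mean of 6 adipocyte markers, and of Slc25a34 and Slc25a20 against the mean of 7 slow fibre markers, 1 point per mouse, coloured by group and shaped by replicate number. No young KO mouse lies above 6.47 on the adipocyte axis, and young control replicate 3 lies lowest on the slow fibre axis and in both carriers plotted there.

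Partner genes of the carriers were read from lists of mitochondrial transport. Of 13 measured carriers and pores without an Slc25a symbol, such as the uncoupling proteins, the pyruvate carrier and the porins, 8 were higher in KO in young mice and 3 in old mice, and 0 passed in any of the 4 comparisons of 2 groups. Vdac1, the main porin of the outer membrane, was singled out after its values were seen. It differed by 0.09 by genotype in young mice (SE 0.03, or 0.02 with the block, and adjusted p = 0.356 with the block). Of the 3 measured malate-aspartate shuttle enzymes 3 were higher in KO in young mice (median 0.12) and 1 in old mice (-0.04), with 0 of 3 passing. Of the 5 carnitine shuttle genes 4 were higher in young and 3 in old KO muscle, again with 0 passing. Cpt1a, an outer membrane enzyme that makes acylcarnitine, was singled out after its values were seen. It differed by 0.50 by genotype in old mice (SE 0.33, or 0.14 with the block, and adjusted p = 0.637 with the block). The calcium uniporter complex had 5 measured genes, 4 higher in young and 1 in old KO muscle, and 0 passed. Of 10 fusion and division genes, Mfn2 itself among them, 7 were higher in young KO and 2 in old KO muscle, and of 3 creatine kinases 1 and 0, with 0 passing in each list. Of all genes 47.8% were higher in KO in young mice and 48.4% in old mice. How the counts of these lists change without single arrays was not tested.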

How the data were processed

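Quadriceps RNA of 16 mice was measured on Affymetrix arrays, 4 mice in each of 4 groups taken from the sample titles. Per the labels' protocols, 25 ng of RNA was amplified as a whole transcriptome, and per the submitters' processing notes RMA and affy were used. The files deposited by the authors give 1 log2 signal for each probe set and array. The array data name no genome build in the sources used here, and the build of the promoter windows is RefSeq's.

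Of 45141 probe sets, 104 controls were left out, 28898 carried 1 symbol, 551 several and 15588 none. A gene was represented by its brightest probe set, and no gene was filtered on its level. Linear models (limma 3.58.1, R 4.3.3) were fitted over all 17097 genes and 16 arrays, 1 mean per group, with a trended prior, two-sided tests and Benjamini-Hochberg adjustment. Single genes also had exact permutation tests over the 70 divisions of 8 mice. A paired form changed the signs of the differences within the 4 replicate numbers, with a lowest two-sided p of 0.125. These exact p were not adjusted over comparisons. In their deviations from group means, same-numbered arrays correlated from 0.29 to 0.78 over 24 pairs (median 0.68). The numbers were therefore taken to pair the samples and were also fitted as a block. The median of -0.46 for different numbers is no separate evidence, since these deviations cancel within each group. Marker slopes were fitted beside group and number. The code was tested on simulated data. The number of arrays limits the precision.

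Members and lists were chosen with earlier results of these data known. Values of every array were given for members with the 3 smallest p in each comparison of 2 groups, the 2 smallest in each of the others, and Slc25a3, Slc25a4, Slc25a12, Slc25a20 and Slc25a46. Of 48 family members listed by role, 8, among them Slc25a11, are not analysed here.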

Additional observations from a re-analysis of the deposited data

Results flagged for a closer look

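In the 56 groups of 4 mice formed by 14 carriers, 2 held a mouse far from the other 3, and chance alone gives about 1 in 20. Slc25a20 stood at 7.40 in young control replicate 3, against 8.54 to 8.70 in the other 3 mice of the group. Slc25a4 stood at 11.96 in old KO replicate 2, against 12.16 to 12.19 in the others. Slc25a15 was higher in KO in 4 of 4 young pairs of one replicate number and lower in KO in 4 of 4 old pairs, and its interaction was -0.45, which did not pass (limma adjusted p = 0.641 with the replicate block). The old pairs differed by -0.008, -0.33, -0.012 and -0.061 in numbers 1 to 4. Its dimmer probe set gave 0.04 by genotype in old mice. The share of all genes with such a pattern was not counted.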

How the results depend on the processing

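Across 47 alternatives in each of 7 comparisons 0 of 40 carriers passed adjustment, and the lowest limma adjusted p of any was 0.145, for Slc25a15 by age in KO mice among genes above the median level with the replicate block. At an unadjusted p under 0.05 the fit without the block had 3, 1, 0, 0, 2, 0 and 0 carriers in these comparisons. The highest counts were 8, 5, 7, 9, 8, 6 and 7 under the alternatives that keep each array or leave out number 3, and 7, 5, 7, 7, 10, 4 and 6 with arrays left out singly, with or without the block. The lowest were 1, 0, 0, 0, 0, 0 and 0 and 2, 0, 0, 0, 1, 0 and 0. Every median difference over the carriers moved by less than the 0.15 SD between replicates, though these medians lie near 0 and changed sign under some settings. With arrays left out singly the median ranged from -0.02 to 0.07 for genotype in young mice, -0.08 to 0.04 for genotype in old mice, -0.05 to 0.05 for age in control mice and -0.10 to 0.03 for age in KO mice. Of 18 single differences followed, 17 kept their sign under every alternative run. The 18 were picked for the smallest p in their comparison, which makes a kept sign likely, so this count does not measure robustness. Differences that were not followed did turn when a single array was left out. In the fit without the block these were Slc25a34 by genotype in young mice and by age in control mice, and Slc25a15 by genotype in old mice. That fit kept the other arrays of the same number, which deviate together. Within numbers 1 to 4 Slc25a34 differed by 0.81, 0.13, 0.77 and -0.38 by genotype in young mice. By age in control mice it differed by 0.38, 0.47, 1.58 and -0.87. Slc25a15 differed by -0.008, -0.33, -0.012 and -0.061 by genotype in old mice. The age difference of Slc25a34 over both genotypes turned from 0.44 to -0.090 with family in the fit and to -0.19 with family and the replicate block, where the family called Other is the only one with mice of both ages, and the cause was not tested. The replicate block left every difference as it was and changed no call. The block with arrays of number 3 left out, with marker means, with the pyruvate carboxylase signal, or with another probe rule or filter was chosen after seeing the data. With 4 mice per group the median SE of a carrier's difference was 0.20, or 0.11 with the replicate block.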
